A study of Mus musculus with 8 samples.

Results

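The MYC and MAX network was described here in mouse lymphoma cells with and without a short hairpin RNA (shRNA) against Crebbp. Its 10 members, Myc, Mycn, Max, Mlx, Mxd1, Mxd3, Mxd4, Mxi1, Mnt and Mga, were found by symbol among the 23868 gene symbols of the deposited table, and all 10 had a row. The table gives FPKM, a fragment count scaled by transcript length and library depth, at 25477 loci of the mouse build mm10. Total RNA longer than 200 nt was taken from spleen lymphoma cells labelled as positive for B220, a B cell surface protein, and for green fluorescent protein (GFP). Of the 8 libraries, 4 came from cells with a scramble control shRNA and 4 from cells with shCrebbp. Crebbp encodes a histone acetyltransferase and coactivator of transcription. The labels give no mouse strain, genotype or age. Nor do they tie libraries to separate animals, so the p-values reflect the spread between libraries, which may be technical. All scramble libraries carry the name prefix AO227, shCrebbp libraries 1 and 2 carry AO228 and shCrebbp libraries 3 and 4 carry AO229. What the prefixes stand for is not given in the sources used here.

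MYC and its neuronal relative MYCN activate transcription of growth genes as heterodimers with MAX, bound to E-boxes of sequence CACGTG. MAX is the shared partner of the network. The MXD proteins (MXD1, MXI1, MXD3 and MXD4) and MNT compete for MAX and bring the SIN3 histone deacetylase corepressor to the same sites. MLX is a second hub that pairs with some MXD proteins, with MNT and with the glucose-sensing MONDO factors. MGA pairs with MAX within a Polycomb complex, PRC1.6. In B cells MYC is known for driving entry into the cell cycle, and it is a frequent oncogene of B cell lymphoma.

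RefSeq promoter windows on GRCm38.p6, each running from 250 bases before a transcription start to 50 after it, were at hand for 9 members (11 windows, with 3 for Mxi1). Myc had no entry. The E-box CACGTG, which reads the same on both strands, stood in 4 of the 11 windows, those of Max, Mlx, Mxd4 and Mnt, against 7.15% of all 32851 windows. They are shown since they hold the motif that the network's own dimers recognise, with the E-box in capitals.
Max promoter (chr12:76962199-76962498, minus strand): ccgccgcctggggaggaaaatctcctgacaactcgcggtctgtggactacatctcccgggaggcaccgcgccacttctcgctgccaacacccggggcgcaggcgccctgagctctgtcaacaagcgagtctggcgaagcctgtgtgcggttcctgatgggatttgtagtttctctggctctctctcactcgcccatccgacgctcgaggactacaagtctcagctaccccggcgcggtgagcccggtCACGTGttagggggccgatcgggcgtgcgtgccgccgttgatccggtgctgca
Mlx promoter (chr11:101087040-101087339, plus strand): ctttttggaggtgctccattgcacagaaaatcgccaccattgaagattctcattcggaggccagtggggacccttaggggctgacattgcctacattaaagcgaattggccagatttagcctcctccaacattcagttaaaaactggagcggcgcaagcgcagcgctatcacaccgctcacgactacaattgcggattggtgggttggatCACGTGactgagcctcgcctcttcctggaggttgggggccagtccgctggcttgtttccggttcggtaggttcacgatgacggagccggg
Mxd4 promoter (chr5:34187661-34187960, minus strand): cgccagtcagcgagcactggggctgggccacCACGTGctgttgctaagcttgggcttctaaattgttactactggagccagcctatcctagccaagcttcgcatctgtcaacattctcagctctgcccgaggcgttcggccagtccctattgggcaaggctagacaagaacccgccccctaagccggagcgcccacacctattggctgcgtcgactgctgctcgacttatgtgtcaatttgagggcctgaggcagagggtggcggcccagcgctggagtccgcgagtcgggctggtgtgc
Mnt promoter (chr11:74830674-74830973, plus strand): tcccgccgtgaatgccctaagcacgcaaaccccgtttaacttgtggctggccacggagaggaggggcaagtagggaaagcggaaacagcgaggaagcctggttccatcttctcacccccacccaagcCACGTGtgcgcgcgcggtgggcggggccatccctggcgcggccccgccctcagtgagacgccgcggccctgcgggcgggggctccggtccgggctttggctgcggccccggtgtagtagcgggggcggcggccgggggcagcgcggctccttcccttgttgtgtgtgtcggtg
Counted from the transcription start, the first base of the E-box lay at -3 for Max, so that the motif spans the start, and at -40 for Mlx. It lay at -123 for Mnt and at -219 for Mxd4. The full cAMP response element TGACGTCA, a site of the CREB factors to which the CREBBP protein binds, was in 0 of the 11 windows against 1.79% of all windows. Its core TGACG, searched on both strands and contained in the full element, stood in the windows of Mlx and Mga, against 20.8% of all. These are matches of letters and not measured binding.

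The libraries carried B cell transcripts: all 11 B cell markers had a mean of at least 1 FPKM. For the 10 with a locus of their own, the summed level ran from 2538 to 3089 FPKM in scramble and from 2629 to 3540 in shCrebbp libraries. Of markers of other cells, 3 of 10 for T and NK cells, 4 of 10 for myeloid cells and 3 of 8 for red cells reached that mean. Over markers whose locus holds a single gene, the summed level ran from 4.05 to 14.4 FPKM in scramble and 6.51 to 16.0 in shCrebbp for the 9 T and NK genes. For the 9 myeloid genes it ran from 5.69 to 16.1 and from 3.36 to 17.5, with Elane at 0 throughout. For the 6 red cell genes it ran from 3.65 to 8.58 and from 4.93 to 11.7. With the merged globin loci included, the red cell sum ran from 4.23 to 27.2 and from 14.3 to 30.9. The T and NK sum leaves out the locus of Lck with Mir8119, which averaged 30.3 FPKM in scramble and 16.6 in shCrebbp. The myeloid sum leaves out the locus of Cd68 with Eif4a1 and Senp3, at 365 and 284. The targeted gene, Crebbp, measured 25.9 ± 5.54 and 22.0 ± 3.66 FPKM (log2 difference -0.22, exact two-sided permutation p = 0.314), so the table shows no detectable fall of its transcript. The share of loci at 0 ran from 33.2 to 51.8% over the libraries, and scramble 2 stood apart with the highest share and a top value of 6008140 FPKM.

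Levels in FPKM are per length and can be set between genes. Averaged over the 8 libraries, Myc stood highest at 44.5 ± 30.5 FPKM (SD, n = 8), followed by Max at 35.1 ± 7.08 and the Mxd4 locus at 30.5 ± 6.08. Mlx (14.6 ± 3.39), Mga (14.0 ± 1.56) and Mnt (13.6 ± 3.20) formed a middle tier whose ranges overlap. Mxd1 followed at 9.43 ± 2.04, then Mxd3 at 3.68 ± 1.43 and Mxi1 at 1.85 ± 0.566, and Mycn was last at 0.0290 FPKM. Neighbours in this order overlapped in range except at 3 steps, from the Mxd4 locus to Mlx, from Mxd1 to Mxd3 and from Mxi1 to Mycn. Myc was above Max in only 4 of the 8 libraries. Its coefficient of variation over libraries was 68.4%, against 11.1% for Mga and 20.2% for Max.

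**Figure D1:**
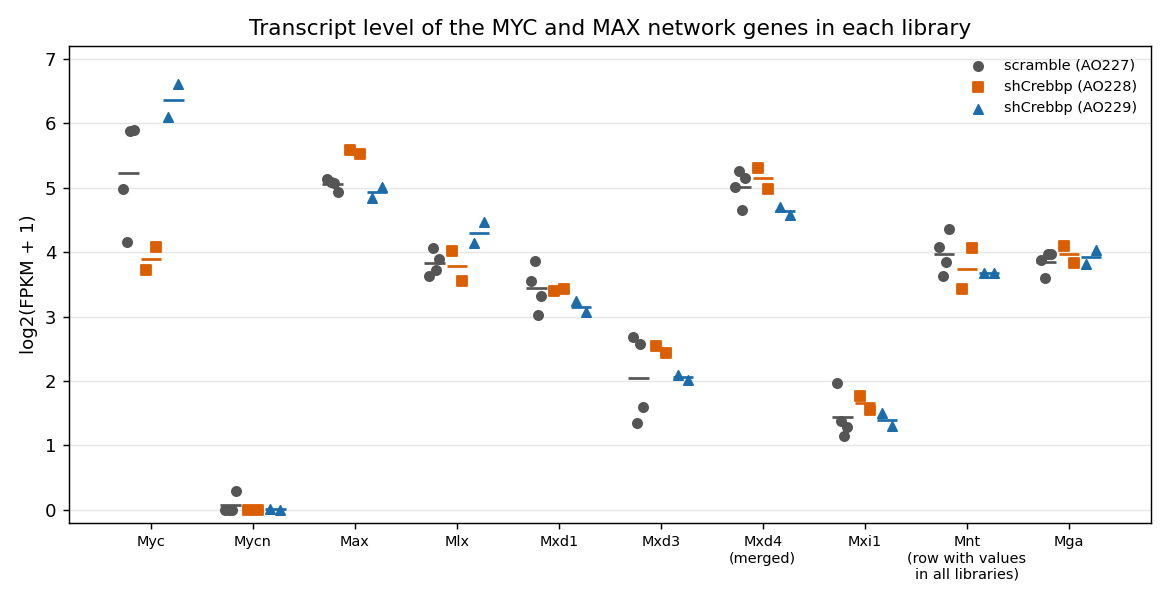
Each point is 1 library, with log2(FPKM + 1) on the vertical axis and the 10 network genes along the horizontal axis; short lines are means of the libraries of 1 name prefix. Myc spreads more widely than Max or Mga, with AO228 libraries lowest and AO229 libraries highest, and Mycn lies at or near 0.

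The first comparison set shCrebbp against scramble cells for network genes; the series is about expression being repressed when CREBBP is lost. Of the 10 members, 9 reached the mean of 1 FPKM needed for testing, and limma called 0 of them at an adjusted p under 0.05, as it called 0% of the 11417 loci tested. At an unadjusted p under 0.05 there were again 0 members, where 5.02% of all loci lay, and for 0 members did the groups fail to overlap, against 3.32% of all loci (1.74% with shCrebbp lower). Of the 9, 5 were higher (55.6%, beside 52% of all loci) and 4 lower in shCrebbp, with a median log2 difference of 0.08 beside 0.01 over all loci tested. The Mnt row counted among the 4 was above 0 only in scramble 2, which alone took it past the filter. The other Mnt row, described below, was also lower (log2 difference -0.26). In bulk RNA, fewer cells of a type and less RNA per cell cannot be told apart.

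Myc (chromosome 15, 61984089 to 61991072, a locus that holds the annotated gene on the plus strand from 61985391 to 61990374) measured 30.6, 16.8, 57.9 and 58.2 FPKM in scramble libraries 1 to 4. In shCrebbp libraries 1 to 4 it measured 12.2, 15.9, 67.8 and 97.1 FPKM. The shCrebbp libraries thus held both the lowest and the highest levels, on either side of all scramble libraries. Group means were 40.9 ± 20.6 and 48.2 ± 41.3 FPKM (SD, n = 4 each). On the log2(FPKM + 1) scale the difference was -0.10 (standard error 0.68, 95% confidence interval -1.63 to 1.44; limma adjusted p = 0.989, exact two-sided permutation p = 0.914). With 4 libraries a side, exact permutation cannot give a p below 0.0286. The interval spans more than a doubling and a halving, and the direction turned to 0.12 without scramble 3 or scramble 4, to 0.37 without shCrebbp 1 and to 0.25 without shCrebbp 2.

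Mycn, which is known for neural and early progenitor tissues, was listed at 0 in 6 libraries (chromosome 12, 12936093 to 12941836). The other values were 0.222 FPKM in scramble 4 and 0.00980 in shCrebbp 3. It did not pass the filter, so Myc was the only MYC gene among the members above 1 FPKM. Mycl, the third MYC gene, averaged 0.0839 FPKM in scramble and 0.154 in shCrebbp.

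Max (chromosome 12, 76937269 to 76962293) measured 34.3, 33.0, 32.7 and 29.6 FPKM in scramble libraries. The shCrebbp libraries gave 47.2, 44.8, 27.6 and 31.4 FPKM. Scramble libraries lay close together, while shCrebbp 1 and 2 were above all of them and shCrebbp 3 below. The log2 difference between groups was 0.18 ± 0.19 (standard error, n = 4 each; limma adjusted p = 0.929, exact permutation p = 0.40).

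Mlx (chromosome 11, 101087290 to 101095435) measured 11.4, 15.7, 12.2 and 13.8 FPKM in scramble and 15.2, 10.7, 16.6 and 21.2 in shCrebbp libraries 1 to 4. The groups overlapped, and the 2 highest values were in shCrebbp 3 and 4 (log2 difference 0.22, standard error 0.21; limma adjusted p = 0.919). Its locus also covers Psmc3ip on the opposite strand. The library kit keeps strand, but whether the authors' quantification used it is not stated.

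Among the repressors, Mxd1, a gene known to rise as cells leave the cycle and differentiate, measured 10.7, 13.5, 7.11 and 8.99 FPKM in scramble and 9.52, 9.80, 8.45 and 7.36 in shCrebbp libraries. All shCrebbp values lay within the scramble range (log2 difference -0.15, standard error 0.20). Mxd3, whose expression is known from proliferating cells in S phase, measured 5.39, 1.54, 4.94 and 2.01 FPKM in scramble and 4.84, 4.40, 3.28 and 3.03 in shCrebbp. The scramble libraries split into a low and a high pair, with all shCrebbp values between them (log2 difference 0.23, standard error 0.33). The Mxd3 locus (chromosome 13, 55322055 to 55329730) reaches into Prelid1 on the other strand. Mxi1, the MXD2 gene, measured 2.92, 1.61, 1.21 and 1.45 FPKM in scramble and 2.41, 1.94, 1.84 and 1.46 in shCrebbp (log2 difference 0.08, standard error 0.26). A second Mxi1 row with the same coordinates averaged 0.824 and 0.880 FPKM and was not tested.

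Mxd4 could not be read alone, since the table merges it with Haus3 and Poln into 1 locus (chromosome 5, 34007179 to 34187710). This locus measured 31.4, 37.1, 24.1 and 34.6 FPKM in scramble and 38.6, 30.5, 24.9 and 22.7 in shCrebbp libraries. The groups overlapped (log2 difference -0.13, standard error 0.20; limma adjusted p = 0.951), and how much of the value is Mxd4 cannot be told apart.

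Mnt, the repressor gene that most tissues express, has 2 rows with the same coordinates (chromosome 11, 74828608 to 74846747). The row of highest mean, which the selection takes, was listed at 532 FPKM in scramble 2 and at 0 in the other 7 libraries, so it rests on 1 library, the one that stood apart above. The other row held values throughout, at 15.9, 11.3, 13.3 and 19.5 FPKM in scramble and 9.72, 15.7, 11.8 and 11.8 in shCrebbp. Scramble reached higher but the groups overlapped (log2 difference -0.26, standard error 0.20; limma adjusted p = 0.915, exact permutation p = 0.286). Levels and plots of Mnt here use that row.

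Mga (chromosome 2, 119897228 to 119969979) varied least, at 13.7, 11.1, 14.6 and 14.6 FPKM in scramble and 16.1, 13.3, 13.1 and 15.4 in shCrebbp (log2 difference 0.10, standard error 0.15). Its 95% confidence interval from -0.23 to 0.42 was the narrowest among the tested members.

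The second comparison set the name prefixes within shCrebbp against each other, since the 4 shCrebbp values of Myc fell into 2 pairs along them. Myc averaged 14.0 FPKM in the 2 AO228 libraries, 40.9 in scramble and 82.4 in the 2 AO229 libraries. AO229 was thus 5.88-fold above AO228 by mean FPKM (log2 difference 2.46, standard error 0.54, 95% confidence interval from 1.24 to 3.69). With limma's adjustment over all loci this did not pass (adjusted p = 0.0674, unadjusted p = 0.00152). It passed with loci of at least 5 FPKM only (limma adjusted p = 0.0456), with library weights (0.0245) and without scramble 2 (0.0192), and over all alternatives tried the adjusted p ran from 0.0192 to 0.321. Of the 11417 loci, 118 (1.03%) differed by more in size between the prefixes. Both AO229 values of Myc lay above and both AO228 values below every scramble library, an arrangement shared by 1.45% of loci, while the mirrored one held for 1.70%. The prefix comparison was chosen with the values known, and 2 against 2 libraries cannot give an exact permutation p below 0.333.

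Set against the same scramble libraries, the log2 difference of Myc was -1.33 in AO228 (limma adjusted p = 0.374) and 1.13 in AO229 (limma adjusted p = 0.494). The near-zero difference of the groups is the average of these opposite values. Scramble libraries spread along the same range, with scramble 2 near AO228 and scramble 3 and 4 just under AO229.

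Max differed between the prefixes in the other direction, at 46.0 FPKM in AO228 and 29.5 in AO229 (log2 difference -0.63, standard error 0.16; limma adjusted p = 0.0968). Across the 9 tested members, limma called 0 at an adjusted p under 0.05, against 1.28% of all loci. At an unadjusted p under 0.05 there were 2, Myc and Max, which is 22.2% of 9 beside 16.4% of all loci, which for 9 genes is near the background. Of the 9, 2 were higher in AO229 (22.2%, beside 50.4% of all loci) and 6 lower, and the Mnt row of highest mean was at 0 in both prefixes. Mlx had a log2 difference of 0.52, with averages of 13.0 and 18.9 FPKM, and the Mxd4 locus one of -0.51 (limma adjusted p = 0.334 and 0.317). The values were -0.26 for Mxd1, -0.44 for Mxd3, -0.26 for Mxi1, -0.07 for the complete Mnt row and -0.03 for Mga.

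**Figure D2:**
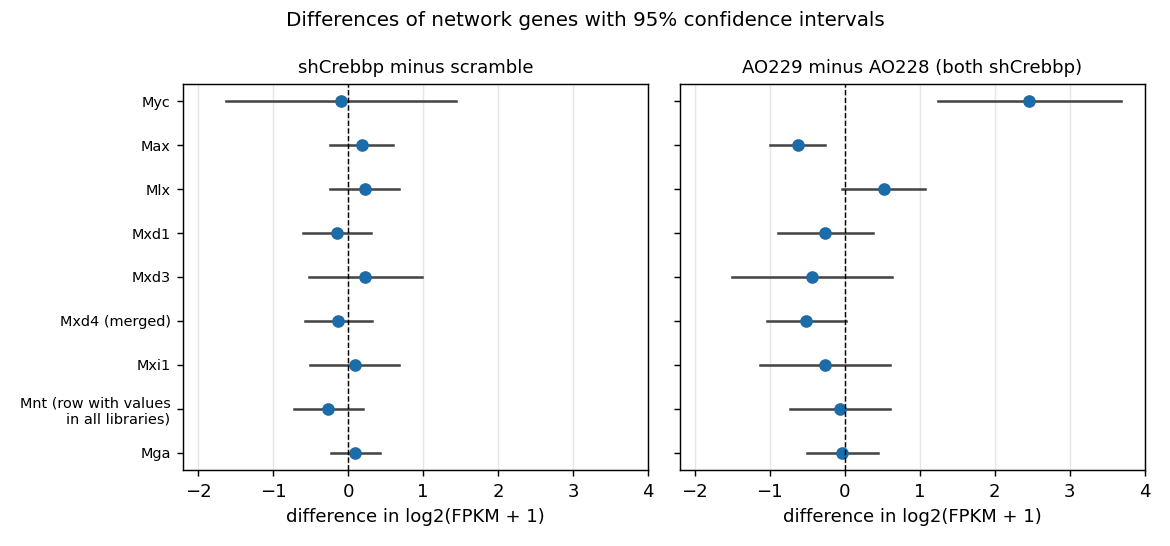
Points are differences in log2(FPKM + 1) from limma with 95% confidence intervals for the network genes above 1 FPKM, on the left between groups and on the right between the shCrebbp libraries of the prefixes AO229 and AO228. All intervals on the left include 0, and on the right those of Myc (1.24 to 3.69) and Max (-0.99 to -0.26) do not, before adjustment for the loci tested.

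The level of Myc relative to Max followed the same pattern. The ratio of the FPKM of Myc to that of Max was 0.891, 0.509, 1.77 and 1.96 in scramble libraries 1 to 4. In shCrebbp it was 0.258 and 0.354 in AO228 and 2.46 and 3.09 in AO229, so the prefixes stood further apart in the ratio than in Myc alone. The ratio of Myc to the summed level of Mxd1, Mxd3, Mxi1 and the complete Mnt row ran from 0.602 to 2.18 in scramble. It was 0.460 and 0.498 in AO228 and 2.67 and 4.11 in AO229. These are transcript ratios and carry no test.

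**Figure D3:**
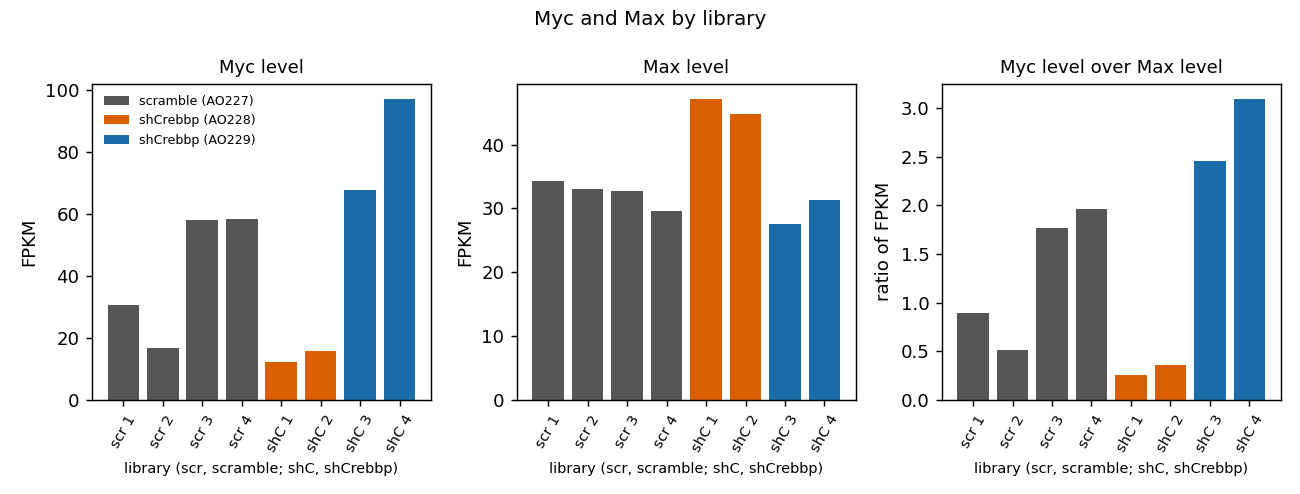
Bars give the FPKM of Myc, the FPKM of Max and their ratio in each of the 8 libraries (scr, scramble; shC, shCrebbp), coloured by name prefix, all axes starting at 0. The ratio is lowest in shCrebbp 1 (0.258) and highest in shCrebbp 4 (3.09).

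Genes whose levels over the 8 libraries were most like that of Myc were sought among 9260 single-gene loci by Pearson correlation of log2(FPKM + 1), given as a description since the libraries share their preparation and depth is unknown. The 5 most alike were Nfam1 (r = 0.996), Plac8 (0.991), Plaur (0.984), St3gal6 (0.982) and Bach1 (0.979). Plaur, the gene of the urokinase receptor, measured 7.79 and 14.7 FPKM in AO228 and 146 and 148 in AO229. Plac8 measured 50.5 and 64.7 FPKM in AO228 and 380 and 535 in AO229. Among the least alike were Dbf4 (r = -0.984), Plin2 (-0.981), Zfp773 (-0.977) and Cdc20 (-0.977). Dbf4, the activating subunit gene of the replication kinase CDC7, measured 23.1 and 20.03 FPKM in AO228 and 8.90 and 8.87 in AO229. Cdc20, an activator gene of the anaphase-promoting complex, measured 15.4 and 16.9 FPKM in AO228 and 6.07 and 5.20 in AO229. Within the network, the correlation with Myc was -0.82 for Max, -0.79 for the Mxd4 locus, -0.72 for Mxd1 and 0.44 for Mlx.

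Genes that MYC is known to activate were then read from fixed lists. Of 31 genes of ribosome and nucleolus biogenesis, 22 were lower and 9 higher in shCrebbp than in scramble cells (median log2 difference -0.12, beside 0.01 over all loci). Limma called 0 at an adjusted p under 0.05, and at an unadjusted p under 0.05 there were 3 lower, where 2.93% of all loci lay, and 0 higher, where 2.08% lay. These were Nolc1, a nucleolar chaperone gene, Rrs1, a gene of large ribosomal subunit assembly, and Ppan, a nucleolar assembly factor gene. Nolc1 measured 16.9, 15.7, 17.4 and 18.8 FPKM in scramble and 3.16, 10.3, 12.8 and 11.1 in shCrebbp libraries, with no overlap of the groups (log2 difference -0.95, standard error 0.34; limma adjusted p = 0.915). Rrs1 averaged 7.61 ± 0.409 and 4.62 ± 1.86 FPKM, Ppan 32.8 ± 6.99 and 23.9 ± 3.16, and Dkc1, a gene of rRNA pseudouridylation, 8.87 ± 2.26 and 11.6 ± 0.589 (SD, n = 4 each). In 3 of the 31 genes, Nolc1, Rrs1 and Nop56, all shCrebbp libraries of either prefix lay below scramble, against 1.74% of all loci. In AO228, 22 of the 31 genes were lower and 9 higher than in scramble (median log2 difference -0.22). The same counts held in AO229, where Myc was highest (median log2 difference -0.05). Between the prefixes, AO229 was above AO228 in 22 of 31 genes and below it in 9 (median log2 difference 0.21, beside 0.00 over all loci). Limma called 0 of these at an adjusted p under 0.05, and 2 were higher and 0 lower at an unadjusted p under 0.05, against 7.75% and 8.64% of all loci. The prefix difference was 0.92 for Nolc1 and 0.56 for Rrs1 on the log2 scale (limma adjusted p = 0.292 and 0.469).

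Of 29 tested genes of metabolism and growth, 18 were lower and 11 higher in shCrebbp (median log2 difference -0.05), with 0 called by limma and 2 lower and 0 higher at an unadjusted p under 0.05, against 2.93% and 2.08% of all loci. Between the prefixes 19 were lower and 10 higher in AO229 than in AO228 (median log2 difference -0.20), with 0 called. At an unadjusted p under 0.05 there were 7 lower and 0 higher, against 8.64% and 7.75% of all loci. Odc1, the rate-limiting enzyme gene of polyamine synthesis and a classic MYC target, measured 370, 312, 333 and 277 FPKM in scramble. In shCrebbp it measured 134, 224, 122 and 173 FPKM, all below the lowest scramble library (log2 difference -1.01, standard error 0.21; limma adjusted p = 0.695). Odc1 was low in AO228, where Myc was low, and also in AO229, where Myc was highest. Whether Myc has a part in the level of Odc1 was not tested. Hspd1, a mitochondrial chaperonin gene, averaged 105 ± 16.5 and 70.8 ± 14.2 FPKM. The glycolysis genes Eno1 (50.1 ± 4.91 and 71.3 ± 23.5 FPKM) and Ldha (69.2 ± 8.93 and 109 ± 49.4) were highest in the AO228 libraries, where Ldha reached 180 and 104 FPKM.

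Of 16 tested cell cycle genes among MYC targets, 10 were lower and 6 higher (median log2 difference -0.03), with 0 at an adjusted or unadjusted p under 0.05. Cdk4, a G1 kinase gene, averaged 43.6 ± 3.40 FPKM in scramble and 53.5 ± 8.66 in shCrebbp. The values were 1.95 and 2.96 for Ccne1, 11.9 and 9.77 for E2f2 and 4.30 and 3.29 for the locus of Cdc25a with Mir7089. Between the prefixes, 15 of the 16 were lower in AO229 than in AO228 (median log2 difference -0.70, beside 0.00 over all loci). Myc was higher in AO229, and whether it has a part in the levels of these genes was not tested. Limma called 2 lower at an adjusted p under 0.05, against 0.613% of all loci, and 9 were lower at an unadjusted p under 0.05, against 8.64%. Ccna2, the cyclin A2 gene of S and G2 phase, fell from 15.8 and 14.7 FPKM in AO228 to 5.32 and 5.20 in AO229 (limma adjusted p = 0.0497). Cks2, a gene of a cyclin-dependent kinase subunit, fell from 64.4 and 61.9 to 26.3 and 31.5 FPKM (limma adjusted p = 0.0374). These calls rest on 2 libraries a side. The count of called loci, 146 in all, was 3 without scramble 1 or scramble 3, 522 without scramble 2, and 8, 15, 11 and 71 without shCrebbp 1 to 4 in turn. In these last 4 fits 1 prefix holds a lone library, which is assumed to vary like the other groups.

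Proliferation markers lay in the direction opposite to Myc. All 12 were lower in AO229 than in AO228 (median log2 difference -1.12), with 1 called by limma, against 0.613% of all loci, and 9 at an unadjusted p under 0.05, against 8.64%. Top2a, the topoisomerase gene of dividing cells, measured 24.7, 46.2, 26.4 and 19.3 FPKM in scramble, 56.1 and 57.9 in AO228 and 14.2 and 15.4 in AO229 (AO229 against AO228, limma adjusted p = 0.0443). Mki67, the gene of the Ki-67 antigen, measured 39.7, 68.2, 32.3 and 19.3 FPKM in scramble, 51.5 and 61.1 in AO228 and 12.8 and 17.7 in AO229. Within scramble, scramble 2, which had the least Myc, had the most Top2a and Mki67. In the group comparison 0 of the 12 passed at an adjusted or unadjusted p (median log2 difference -0.08). Mybl2 averaged 2.83 FPKM in scramble and 4.49 in shCrebbp, Bub1 1.81 and 2.70, Aurkb 5.86 and 7.59, and the locus of Foxm1 3.92 and 3.51. Whether the share of cycling cells has a part in the spread of Myc was not tested.

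**Figure D4:**
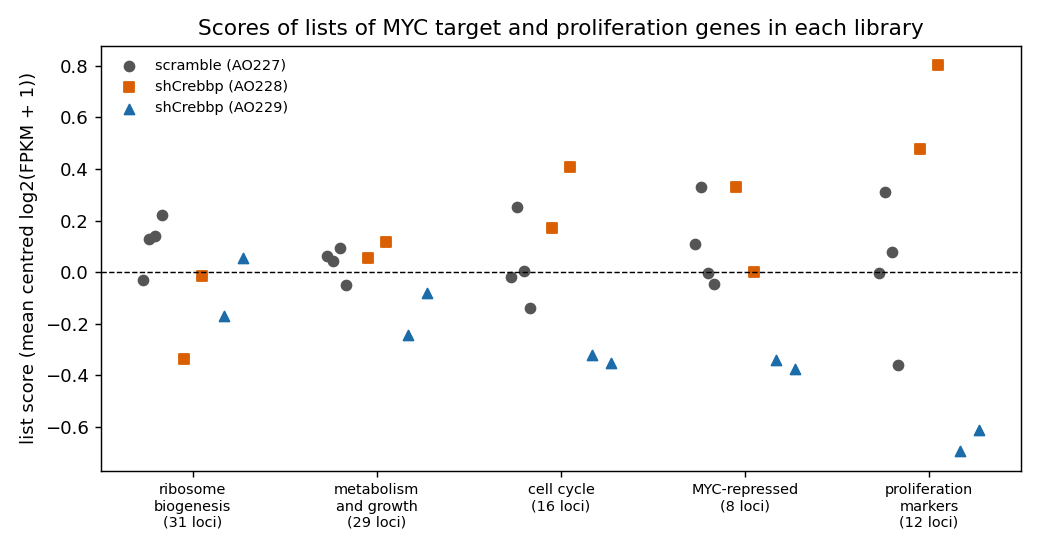
Each point is the score of a gene list in 1 library, the mean over its loci of log2(FPKM + 1) after subtracting each locus's mean over the 8 libraries. For the cell cycle and proliferation lists both AO228 libraries lie above 0 and both AO229 libraries below it, the reverse of Myc. For ribosome biogenesis genes the AO228 and AO229 points overlap. Tcof1, a gene of that list, was listed at 0 FPKM in shCrebbp 3 and at 22.2 FPKM or more elsewhere, which lowers the shCrebbp 3 point. The score without Tcof1 was not computed.

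Of the 11 B cell markers, 8 were higher in AO229 than in AO228 (median log2 difference 0.29), with 1 called higher by limma, against 0.666% of all loci, and 4 higher at an unadjusted p under 0.05, against 7.75%. That gene, Fcer2a, encodes the mature B cell antigen CD23, and measured 28.0 and 18.2 FPKM in AO228 and 137 and 96.1 in AO229 (limma adjusted p = 0.0443). Of 8 plasma cell genes, 7 were lower and 1 higher in shCrebbp than in scramble (median log2 difference -0.54), with 0 called by limma and 3 lower and 0 higher at an unadjusted p under 0.05, against 2.93% and 2.08% of all loci. Between the prefixes, 6 of these 8 were lower and 2 higher in AO229 than in AO228 (median log2 difference -0.54), with 1 called higher and 0 lower. The lower ones were Igj (log2 difference -0.96), Slamf7 (-0.79), Mzb1 (-0.56), Prdm1 (-0.54), Xbp1 (-0.54) and Sdc1 (-0.13). Tnfrsf17 was higher in AO229 (0.64) but not called. The called gene, Irf4, a transcription factor gene of activated B cells and plasma cells, went against most of its list and measured 91.0 and 114 FPKM in AO228 and 267 and 232 in AO229 (limma adjusted p = 0.0497). The summed level of the 9 single-gene myeloid markers was 3.91 and 5.89 FPKM in AO228 and 17.5 and 3.36 in AO229. Their part in the spread of Myc was not tested.

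Of 8 tested genes that MYC is known to repress, 6 were lower and 2 higher in shCrebbp (median log2 difference -0.22), with 0 at an adjusted or unadjusted p under 0.05. The cyclin-dependent kinase inhibitor gene Cdkn1a averaged 3.81 ± 1.36 and 2.52 ± 0.927 FPKM, the stress gene Ndrg1 13.6 ± 5.79 and 9.29 ± 5.16, and Klf6 339 ± 36.0 and 385 ± 71.3. Gadd45b, a stress response gene, measured 162, 148, 119 and 151 FPKM in scramble, 189 and 184 in AO228 and 62.4 and 65.0 in AO229. It was the 1 gene of this list called between the prefixes (log2 difference -1.54, limma adjusted p = 0.0300), where 0.613% of all loci were called lower. Of the 8, 5 were lower and 3 higher in AO229 than in AO228 (median log2 difference -0.60). At an unadjusted p under 0.05 there were 4 lower and 0 higher, against 8.64% and 7.75% of all loci. Of the 3 higher, Cdkn1b differed most (log2 difference 0.70, limma adjusted p = 0.354).

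Partner genes of the network came next, and in the group comparison limma called 0 of them at an adjusted p under 0.05. Of 14 SIN3 corepressor genes, 10 were higher and 4 lower (median log2 difference 0.06), with 1 higher and 0 lower at an unadjusted p under 0.05, against 2.08% and 2.93% of all loci. That gene was Hdac1, the histone deacetylase 1 gene, at 28.0, 25.4, 25.8 and 24.3 FPKM in scramble, 56.6 and 41.0 in AO228 and 25.8 and 31.6 in AO229 (log2 difference between groups 0.51, limma adjusted p = 0.915). Its high values were thus in the AO228 libraries, where Max was also high. Ing1 averaged 19.2 and 15.3 FPKM, Sin3b, a scaffold gene of the complex, 57.5 and 70.1, and the histone chaperone gene Rbbp7 42.0 and 34.9.

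Of 16 coactivator genes, 8 were higher and 8 lower (median log2 difference 0.01), with 1 lower and 0 higher at an unadjusted p under 0.05, against 2.93% and 2.08% of all loci. Trrap, the scaffold gene of the histone acetyltransferase complexes that MYC recruits, measured 238, 289, 294 and 220 FPKM in scramble and 211, 117, 204 and 200.0 in shCrebbp, with no overlap of the groups (log2 difference -0.53, limma adjusted p = 0.915). Ccnt1 averaged 36.4 and 29.9 FPKM and its kinase partner gene Cdk9 18.3 and 20.3, while the chromatin remodelling gene Actl6a averaged 20.4 and 23.1. Of the 10 PRC1.6 genes, 6 were higher and 4 lower (median log2 difference 0.03), with 0 at an unadjusted p under 0.05. In scramble and shCrebbp respectively, Cbx3 averaged 34.0 and 26.5 FPKM, Ring1 7.202 and 8.53, L3mbtl2 7.28 and 8.47 and E2f6 3.19 and 2.51.

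Of 16 genes that set MYC protein stability, 7 were higher and 9 lower (median log2 difference -0.05), with 0 at an unadjusted p under 0.05. The kinase genes Pim2 and Pim3 averaged 10.8 and 30.9 FPKM in scramble and 8.21 and 23.6 in shCrebbp. Pim3 held 14.4 and 14.8 FPKM in AO228 and 32.3 and 32.9 in AO229 (limma adjusted p = 0.0668). Axin1 averaged 20.3 FPKM in scramble and 24.6 in shCrebbp, and the ubiquitin ligase gene Fbxo28 6.23 and 4.38. Of the other E-box factors, Usf1 averaged 38.0 and 30.9 FPKM, Usf2 20.6 and 25.4, and Mlxip, a MONDO gene whose product pairs with MLX, 17.0 and 16.0, and 0 of these 3 reached an unadjusted p under 0.05.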

How the data were processed

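The authors deposited 1 table of FPKM values per locus and library, the unit being inferred from the values. The submitters' processing notes name build mm10 and the tools Cufflinks, TopHat2 and CASAVA 1.8, without roles or parameters. The table held 25477 loci and 13 sample columns, of which 8 matched samples by name and 5 were not used. Read counts and depth are unknown, so precision was read from replicates alone.

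Members and lists were chosen with earlier results of these data known. A symbol in several rows was taken at its row of highest mean. The 11417 loci whose mean reached 1 FPKM were fitted on log2(FPKM + 1) with limma 3.58.1 in R 4.3.3, with a trended prior and Benjamini-Hochberg adjustment over all loci at a threshold of 0.05. Prefixes were fitted as 3 coefficients; AO228 and AO229 against AO227 share the scramble libraries. Members were also compared by exact two-sided permutation over the 70 divisions of the libraries. The limma step was first tested on simulated data. Replicates were numbered in series order. Named genes are the members, Crebbp, list genes past the threshold in any comparison, otherwise up to 4 per list of smallest p, and the 5 loci most and 5 least like Myc, of which 1 is not reported here. Other genes were named after their values were seen. Lists give counts and medians only. Locus starts count from 1; overlapping genes are from GENCODE M21.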

Additional observations from a re-analysis of the deposited data

Results flagged for a closer look

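In scramble, the Mycn value of scramble 4 (0.222 FPKM) stood apart from 3 libraries listed at 0, and in shCrebbp that of shCrebbp 3 (0.00980 FPKM) did likewise. The Mnt row of highest mean stood apart in scramble 2, at 532 FPKM against 0 in the other 3 scramble libraries. These were 3 of 50 sets of 4 values examined. In each of the 3 the other values are all 0, so any value above 0 stands apart by construction, and the usual chance rate of about 1 in 20 does not apply.

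AO228 and AO229 lay on opposite sides of the scramble mean for Myc (AO229 minus AO228, 2.46 on the log2 scale) and Max (-0.63). Their limma adjusted p for the difference was 0.0674 and 0.0968. The same held for the scores of 5 lists, whose median differences were -0.22 for PRC1.6 genes, -0.20 for metabolism and growth genes, -0.70 for cell cycle genes, -1.12 for proliferation markers and 0.29 for B cell markers. For these lists as a whole the difference was not tested. Of 21 member rows and lists checked, 7 were flagged, and the share of all loci that would meet this rule was not counted.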

How the results depend on the processing

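No paired analysis was possible because replicate numbers follow series order and mark no shared animal or batch. Loci called between groups numbered 0 as reported, 0 to 2 with single libraries left out, and 1 and 3 with only AO228 or AO229 libraries. Loci called between AO229 and AO228 numbered 146 as reported, 3 to 522 with single libraries left out, 27 without the filter, 240 at a mean of 5 FPKM, 2 with a prior without trend, 495 with library weights and 11 without scramble 2 and shCrebbp 3, the last chosen after seeing the data. The prefix difference of Myc stayed at 2.46 with its call gained at 5 FPKM or with weights, and ran from 2.21 to 2.72 with single libraries left out. That of Mga ran from -0.16 to 0.10, and was 0.076 without scramble 2 and shCrebbp 3.

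Between groups the members' directions were not stable. With single libraries left out, values ran from -0.59 to 0.37 for Myc, -0.0054 to 0.44 for Mxd3 and -0.016 to 0.26 for Mxi1. With library weights they were 0.31 for Myc, -0.019 for Mxd3 and -0.0024 for Mxi1. Without scramble 2 and shCrebbp 3 they were 0.0028 for Mxd1 and 0.012 for Mxd4. With only AO228 libraries they were -0.042 for Mlx and 0.12 for Mxd4, and with only AO229 libraries 1.13 for Myc, -0.13 for Max and -0.046 for Mxi1. List medians with only AO228 libraries were 0.15 for MYC stability, 0.32 for cell cycle and 0.69 for proliferation genes. With only AO229 libraries they were -0.19, -0.39 and -0.66 in that order, -0.17 for metabolism and -0.62 for MYC-repressed genes. With single libraries left out the SIN3 median ran from 0.023 to 0.13 and that of metabolism from -0.17 to -0.029. The cause was not tested. Other scalings kept the members' directions and calls. Depth is unknown, and low genes such as Mycn and Mxi1 are read least firmly.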
